A study of Mus musculus with 2 samples.

Results

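The genes described here are 46 listed cell cycle and DNA replication genes of the mouse, in 4 roles: 14 replication (S phase) genes, 7 cyclin and kinase genes of G1 and the G1/S step, 23 genes of mitosis and 2 inhibitors of cyclin-dependent kinases. They were listed by name as cell cycle genes, with earlier results of these data already known. A probe was found for 42 of them, 1 probe each, out of 16390 named genes on the array. That covers all 14 replication genes, 6 of 7 G1 and G1/S genes, both inhibitors and 20 of 23 mitosis genes. Ccnd1, Ccnb1, Cdc25c and Foxm1 were not analysed here.

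The study compared mouse liver lacking MMP-14 (labelled MMP-14 KO), a metalloproteinase anchored in the cell membrane, with wild-type liver. The E14 Dlk+ array held RNA of fetal liver cells sorted as Dlk+CD45-CD71-Ter119-, with 100000 cells and 3 livers per genotype; the sample labels call them E14 and the design text E14.5. The P1 liver array held whole liver, pooled from 2 livers per genotype, which the sample labels place at postnatal day 1 and the design text at E18.5, before birth. That conflict was not settled, and the array is named here after its label. No treatment was given in the labels, and strain, sex, the knockout allele and whether it was confined to a cell type are not given in the sources used here. Wild-type RNA carried Cy5 and knockout RNA carried Cy3 on both arrays, with 1 array per comparison and the dyes never exchanged. A dye effect particular to a gene cannot be told apart from genotype, no test could be made, and every value below is a description of these 2 arrays whose precision is limited by their number.

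Cells copy their DNA in S phase, after the MCM helicase has been loaded at replication origins by licensing factors such as Cdc6 and Cdt1, and divide it in mitosis, driven by the kinase Cdk1 with its cyclins. Genes of S phase are largely switched on by E2F factors, while genes of mitosis are switched on later, through the MuvB complexes with B-Myb and FOXM1, at promoters that often carry a cell cycle genes homology region (CHR) and CCAAT boxes. In the fetal liver, both the bipotent hepatoblasts, which carry the surface protein Dlk1, and the erythroid precursors divide fast, and hepatocytes slow their division around and after birth.

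Promoters of these genes are shown first because the replication and mitosis members are treated apart throughout. Windows of 300 bases, from 250 before to 50 after the start of transcription, were taken from RefSeq on GRCm38.p6 for 34 of the 42 measured members, and 2 of these genes had 2 windows. Each was searched on both strands for the CHR motif (TTTGAA), the CCAAT box (CCAAT) and E2F motifs (TTTCCCGC, TTTGGCGC, TTTCGCGC or TTTGCCGC). The sequences below run 5′ to 3′ and end at the base before the start, with matches in capitals. Mcm5 and Mcm6, subunits of the replicative helicase, hold E2F matches, and in both a pair of E2F matches overlap on opposite strands. Cdk1, Cdc20 and Top2a are mitosis members that hold CHR matches. Their coordinates are chr8:75109349-75109508 on the plus strand for Mcm5, chr1:128359706-128359825 on the minus strand for Mcm6, chr10:69352913-69353052 on the minus strand for Cdk1, chr4:118437344-118437443 on the minus strand for Cdc20 and chr11:99024190-99024379 on the minus strand for Top2a.
Mcm5: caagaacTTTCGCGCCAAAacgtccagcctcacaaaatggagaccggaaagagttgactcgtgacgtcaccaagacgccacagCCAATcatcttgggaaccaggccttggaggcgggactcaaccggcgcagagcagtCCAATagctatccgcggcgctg
Mcm6: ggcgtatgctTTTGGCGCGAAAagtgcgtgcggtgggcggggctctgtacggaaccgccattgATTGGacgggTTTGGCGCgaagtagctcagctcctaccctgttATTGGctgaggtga
Cdk1: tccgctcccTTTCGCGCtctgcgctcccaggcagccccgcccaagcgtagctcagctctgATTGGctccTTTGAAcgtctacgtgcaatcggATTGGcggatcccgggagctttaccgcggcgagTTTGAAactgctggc
Cdc20: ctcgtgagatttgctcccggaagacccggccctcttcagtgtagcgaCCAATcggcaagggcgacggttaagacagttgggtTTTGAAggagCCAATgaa
Top2a: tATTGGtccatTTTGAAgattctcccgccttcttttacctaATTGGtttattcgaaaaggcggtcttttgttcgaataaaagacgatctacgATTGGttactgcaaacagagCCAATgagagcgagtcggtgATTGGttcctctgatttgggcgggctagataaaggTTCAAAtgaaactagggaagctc

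The letters of these promoters differed by role. A CHR match lay in 11 of 16 mitosis members with a window (68.8%), in 1 of 12 replication members (8.33%, Mcm2) and in 17.9% of all 32851 windows. An E2F match lay in 6 of 12 replication members (50%: Cdc6, Cdt1, Mcm3, Mcm5, Mcm6 and Mcm7), in 1 of 16 mitosis members (6.25%, Cdk1) and in 2.26% of all windows. CCAAT was shared by both roles, with 13 of 16 mitosis members (81.2%) and 8 of 12 replication members (66.7%) against 37.4% of all windows. Cdk1 was therefore a mitosis member with all 3 motifs in its window. A match is a run of letters and does not show that a factor binds there.

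Each array gives 4 kinds of value here: the raw signal of either channel, the log2 ratio of knockout over wild type after normalization, and the difference of a channel between the arrays. A raw signal is the brightness of the probe and depends on the dye. Over all gene probes, detectable or not, the Cy3 reading of the knockout was 2.09 times the Cy5 reading of the wild type at E14 and 1.65 times at P1 (medians). Knockout and wild-type signals thus cannot be set against each other directly. The log2 ratio removes this by loess, a curve through the cloud of all probes by brightness, so that a ratio of 0 means the same offset as other genes of that brightness. A signal counted as detectable above the mean of the blank spots plus 2 SD, which was 44.3 (wild type) and 85.1 (knockout) at E14 and 50.5 and 87.0 at P1. All 42 members were detectable in both channels of both arrays, and the dimmest reading of any member was 1.21 times its threshold. Of all named genes, 12705 were detectable in both channels at E14 and 12715 at P1.

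Marker genes bear on which cells each pool held. The knocked-out gene Mmp14 read 131 in wild type and 132 in knockout at E14, and 161 and 104 at P1, for log2 ratios of -1.13 and -1.30, lower in the knockout on both arrays as labelled. Dlk1, by which the E14 cells were sorted, read 4971 and 11869 at E14 but 128 and 197 at P1. The hepatocyte products Alb and Afp read from 26565 to 54365 in all 4 pools. At E14 the 7 measured of 10 erythroid markers summed to 404 signal units above blank in wild type and 1079 in knockout; at P1 they summed to 7977 and 7635. The wild-type P1 pool also read lung markers, which liver lacks: 4 lung epithelial genes summed to 31282 there against 136 in the knockout pool, and the surfactant gene Sftpc read 24038 against 187 and the club cell gene Scgb1a1 6166 against 97.5. The erythroid sums at P1 come from different dyes and cannot be set against each other directly. After loess the erythroid markers had a median log2 ratio of -0.75 at P1, with 6 of 7 below 0. Whole-liver ratios at P1 thus compare pools that differed in erythroid ratios and in lung signal, and the part of either in the results below was not tested. In such bulk RNA fewer cells of a type and less RNA per cell cannot be told apart.

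At E14 no member differed by 1.5-fold or more between the knockout and wild-type pools after loess. With normexp on the local background of each spot 5 members did, beside 488 genes higher and 31 lower of 12705. With that background subtracted 6 members did, beside 1779 genes higher and 968 lower of 12558. Median centring in place of loess gave 34 members, beside 3158 genes higher and 5 lower of 12705. After loess 33 of 42 members lay above 0, against 53.1% of all genes detectable in both channels, and the alternatives that kept all 42 members gave 24 to 42. The median log2 ratio was 0.10 over the members and 0.01 over all genes. Changes of 1.5-fold were rare on this array as a whole after loess, at 0.307% of genes higher and 0.220% lower in the knockout. The spread between probes of 1 gene within this array had an SD of 0.12 on the log2 scale over 139 genes with several detectable probes. It holds no spread between livers, labellings or arrays, so it is only a partial measure of error. Of the 42 members, 20 lay above 1 such SD and 3 below minus 1 SD, against 17.6% and 9.20% of all genes.

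Replication members at E14 had a median log2 ratio of 0.09, and 13 of 14 were above 0 after loess; 1 of 14 was below 0, against 7 with the local background subtracted, 4 with normexp on that background, 3 with the blank mean subtracted and 5 in the authors' deposited values. Mcm4, Mcm5, Mcm7, Rrm1, Rrm2, Gins2 and Rfc4 each turned below 0 in at least 1 of these settings. Pcna, the sliding clamp that holds DNA polymerase on its template, read 2877 in wild type and 8820 in knockout, a log2 ratio of 0.34. Mcm3 read 310 and 935 (log2 ratio 0.33). With the local background, Pcna came to 1.04 or 1.05 and Mcm3 to 1.08 or 1.90, on the same side but much larger. The remaining helicase subunits lay nearer 0: Mcm4 read 697 and 1851 (0.13), Mcm5 360 and 948 (0.14), Mcm6 657 and 1724 (0.12) and Mcm7 1072 and 2654 (0.03). Mcm2, with 197 and 411, was the replication member below 0, at -0.16, which turned to 0.37 when median centring replaced loess. The 6 subunits of this 1 complex thus spanned -0.16 to 0.33 on the E14 array.

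The licensing factors Cdc6 (132 and 348) and Cdt1 (503 and 1272) had log2 ratios of 0.20 and 0.07, Cdc6 coming to 0.62 or 1.62 with the local background. The nucleotide supply enzymes were close to 0, with Rrm1 and Rrm2, the large and small subunits of ribonucleotide reductase, at 0.05 and 0.04 and thymidylate synthase Tyms at 0.07. Gins2, of the GINS complex that joins the helicase, was at 0.03 and Rfc4, of the clamp loader, at 0.10. After loess, none of these 7 lay as far from 0 as Pcna or Mcm3.

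Members of G1 and the G1/S step showed no common direction at E14: their median was 0.03, with 4 of 6 above 0. Cyclin D2 (Ccnd2) read 374 in wild type and 1081 in knockout, for the highest ratio of this role, 0.27. Its partner kinase Cdk4 read 2001 and 4441, for the lowest, -0.13. The E cyclins Ccne1 and Ccne2 were at 0.04 and 0.12, Cdk2 at 0.02 and the transcription factor E2f1 at -0.03 (161.5 in knockout, under 2 times its threshold). The inhibitors p21 (Cdkn1a, 56.2 and 123) and p27 (Cdkn1b, 80.3 and 185.5) were dim and lay at 0.07 and 0.09.

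Mitosis members at E14 had a median of 0.13, and 14 of 20 were above 0. Cenpe, the kinetochore motor that moves chromosomes to the spindle equator, was highest: it read 140 in wild type and 440.0 in knockout, a log2 ratio of 0.44. Mki67, the source of the Ki-67 proliferation marker, read 558 and 1616 (0.26), Ccnb2, a cyclin of Cdk1, 710 and 2007 (0.22), and Bub1, a checkpoint kinase, 211 and 576 (0.21). Cdk1 itself read 1879 and 5138, a ratio of 0.18. At the other end stood Birc5 (survivin, of the chromosomal passenger complex), which read 1539 and 3402 and lay at -0.13, and Cenpa, the centromeric histone, with 1435 and 3310 at -0.07.

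The other mitosis members filled the range between. Tpx2 (0.21) and Kif20a (0.20), both spindle proteins, and the spindle checkpoint genes Ttk (0.18) and Mad2l1 (0.13) lay on the side of Cenpe. Aurora kinases Aurka and Aurkb were at 0.14 and 0.02, Top2a, which untangles the copied DNA, at 0.12, Mybl2 (B-Myb) at 0.12 and the spindle motor Kif11 at 0.04. Cdc20, an activator of the anaphase-promoting complex, was at -0.01, Plk1, a mitotic kinase, at -0.03, the checkpoint gene Bub1b at -0.04 and cyclin A2 (Ccna2) at -0.04. Of the 20, 12 lay above the SD between probes and 1, Birc5, below minus that SD.

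**Figure D1:**
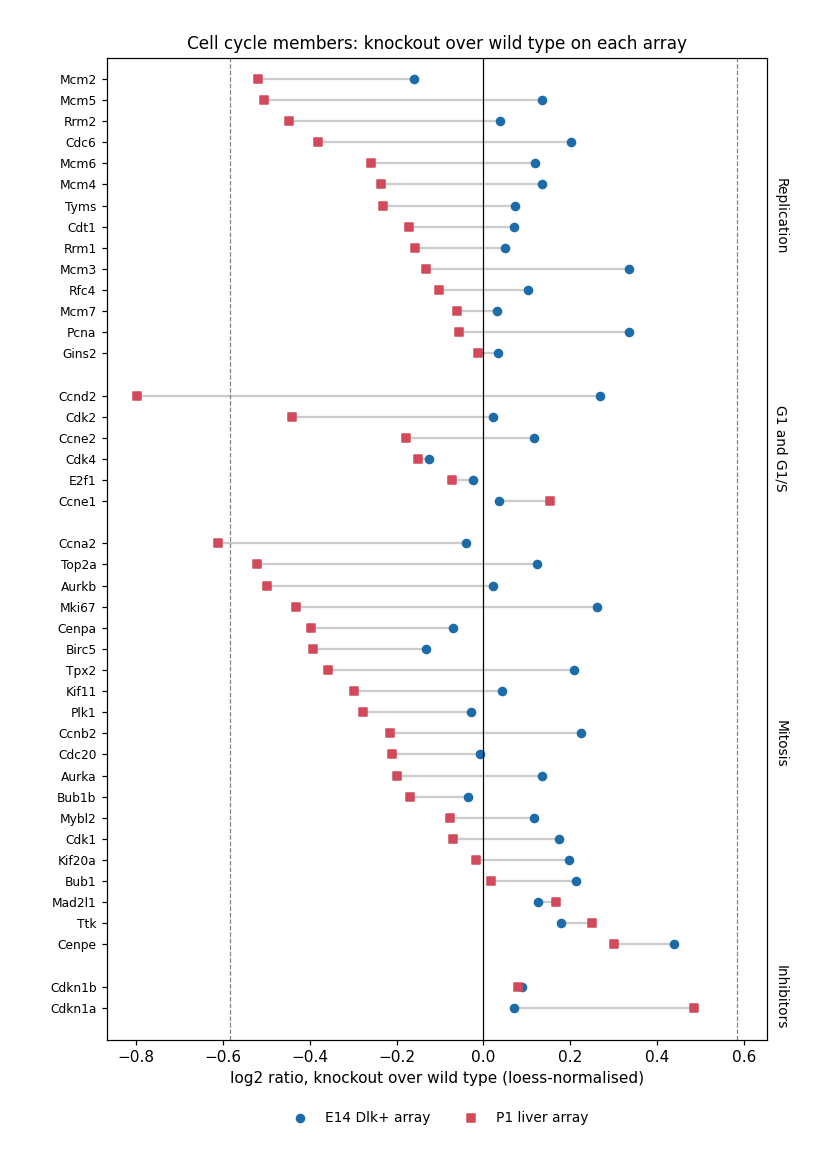
Log2 ratios of knockout over wild type (horizontal axis, after loess) for each of the 42 measured members, grouped by role; circles are the E14 Dlk+ array and squares the P1 liver array, 1 value each with no replicate, and dashed lines mark 1.5-fold. All 14 replication members lay left of 0 at P1 and 1 of 14 left of 0 at E14, but 4 of 14 were below 0 at P1 with median centring in place of loess, and 7 of 14 were below 0 at E14 with the local background subtracted.

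The E14 values, in size and in the count above 0, depended on the processing. In 1 alternative the ratios of the normexp signals (offset 50) were centred on their median in place of loess. The median of all detectable named genes was then 0.29 and that of the members 0.74. On that scale 42 of 42 members were above 0, as were 70.8% of all genes. Set against genes of their own brightness, as loess does, the median of the members was 0.09 above that of all genes. The authors' deposited values are also centred on the median without loess, but on blank-subtracted signals. In them 25 of 42 members were above 0 at E14, against 49.9% of all genes. Their median was 0.07 over the members and -0.0002 over all genes, so the larger values were not seen there. Which step made the difference was not tested.

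At P1 the members lay on the other side: 35 of 42 were below 0 after loess, against 50.4% of all genes, but 18 of 42 with median centring in place of loess, against 39.6%. In the authors' deposited values, also centred on the median without loess, 33 of 42 were below 0, against 50.8% of all genes. After loess the members compared as follows with all genes. Their median log2 ratio was -0.19 against 0.00 over all genes. Ccnd2 and Ccna2 were 1.5-fold or more lower in the knockout pool (2 of 42 members; 4.12% of all genes) and none was 1.5-fold or more higher (2.85% of all genes). A share of 2 in 42 is near the background, so the count of large differences says nothing about the members. The SD between probes of 1 gene was 0.23 on this array, and 18 members lay below minus 1 SD and 3 above 1 SD, against 16% and 15.9% of all genes.

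All 14 replication members were below 0 at P1 after loess, with a median of -0.20; with median centring 4 of 14 were, with a median of 0.08 beside 0.05 for all genes. Mcm2 read 180 in wild type and 182 in knockout (log2 ratio -0.52), Mcm5 308 and 315 (-0.51) and Rrm2 367 and 394 (-0.45). In these 3 genes the knockout reading barely exceeded the wild-type one, while the median Cy3 reading was 1.65 times Cy5 over all gene probes, detectable or not. That factor comes largely from dim probes, with median signals of 73.4 and 113 beside blank means of 48.0 and 82.5. It may not hold at the brightness of these genes. Cdc6, at 122.5 and 139.7, had a ratio of -0.38, and the authors' deposited value for it was -0.82. Mcm2, Mcm5, Rrm2 and Cdc6 stayed below 0 with median centring, at -0.40, -0.27, -0.17 and -0.33, but Cdc6 came to 0.04 and 0.26 when the local background of each spot was used.

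The remaining replication members were closer to 0 and turned sign with median centring. Mcm6 read 512 and 637 (-0.26), Mcm4 510 and 645 (-0.24) and Tyms 389 and 486 (-0.23). Cdt1 was at -0.17, Rrm1 at -0.16, Mcm3 at -0.13, Rfc4 at -0.10, Mcm7 at -0.06, Pcna at -0.06 and Gins2 at -0.01. Values from 0.05 (Cdt1) to 0.44 (Pcna) were given to these 10 genes by median centring. Pcna read 2086 and 3189, and came to 1.46 or 1.65 with the local background and 0.17 in the authors' deposited values. Mcm3, with 251 and 329, came to 0.72 or 1.68 with the local background.

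Among G1 and G1/S members at P1, cyclin D2 stood apart. Ccnd2 read 260.2 in wild type and 218 in knockout, the lowest log2 ratio of all members, -0.80, or 1.74-fold lower. It lay between -0.62 and -1.16 in all settings tried, and the authors' deposited value was -1.08. Cdk2 read 247 and 262 (-0.44), a kinase partner of the E cyclins that was at 0.02 at E14. Cdk4, Ccne2 and E2f1 lay at -0.15, -0.18 and -0.07, of which Cdk4 came to 0.25 with median centring, and Ccne1 read 179 and 283, at 0.15.

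The 2 inhibitors, whose products hold back the kinases above, were both above 0 at P1. Cdkn1a read 111 in wild type and 220.3 in knockout, a log2 ratio of 0.48, which is below 1.5-fold; the authors' deposited value was 0.69. Settings put it between 0.33 and 0.77, always above 0. Cdkn1b read 62.6 and 106, near its thresholds, at 0.08.

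Mitosis members at P1 had a median of -0.21 with 16 of 20 below 0 after loess; with median centring the median was 0.00 and 10 of 20 were below 0. Ccna2, a cyclin of S phase and early mitosis, read 509 in wild type and 495 in knockout, a ratio of -0.61, and -0.29 with median centring. Top2a read 794 and 840 (-0.52), Aurkb 608 and 644.5 (-0.50) and Mki67 959 and 1090 (-0.43). Cenpa (901 and 1047) lay at -0.40 and Birc5 (533 and 605) at -0.39, Birc5 turning to 0.46 and 0.60 with the local background. Tpx2 was at -0.36, Kif11 at -0.30, Plk1 at -0.28 and Bub1b at -0.17.

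Not all genes of mitosis took that side. Cenpe (87.1 and 157) lay at 0.30, Ttk (96.8 and 167) at 0.25 and Mad2l1 (239 and 385) at 0.17. Bub1 was at 0.02 and had a negative value in 3 of 8 alternatives. Ccnb2 and Cdc20 (both -0.21), Aurka (-0.20), Mybl2 (-0.08), Cdk1 (-0.07) and Kif20a (-0.02) lay between, and all of these but Mybl2 came above 0 with median centring. Cdk1, at 561 and 801, was thus close to level between the P1 pools.

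**Figure D2:**
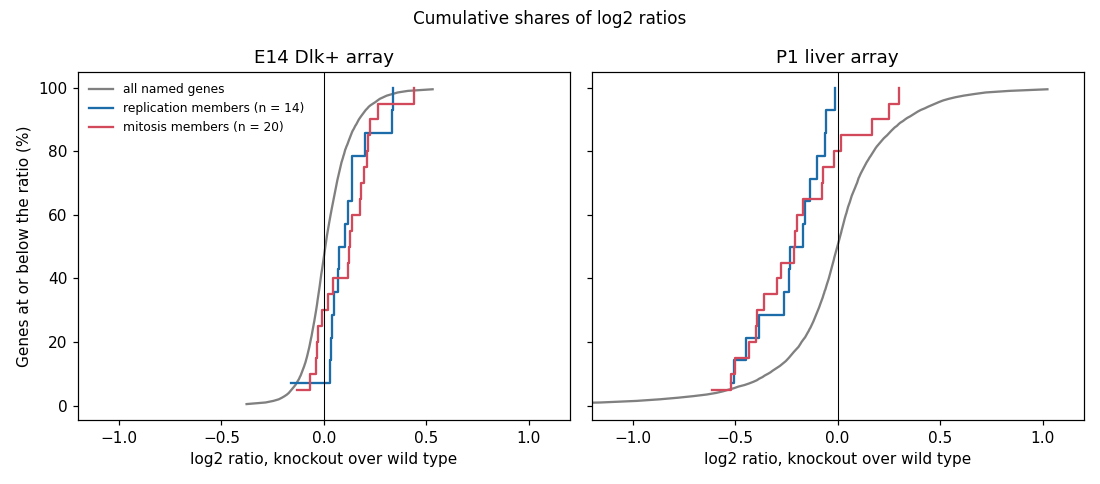
Cumulative share of genes (vertical axis, %) at or below each log2 ratio of knockout over wild type (horizontal axis, after loess) on the E14 Dlk+ array (left) and the P1 liver array (right), for the 14 replication members, the 20 mitosis members and all named genes detectable in both channels. The steps of the members lay right of all genes at E14 (medians 0.09 and 0.13) and left of them at P1 (-0.20 and -0.21). That P1 shift was not seen with median centring of the normexp signals in place of loess (0.08 and 0.00 beside 0.05 for all genes). It was seen in the authors' deposited values, which are blank-subtracted and also centred on the median without loess. There the median of the 42 members was -0.20 against -0.01 for all genes.

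Ratios of cell type marker genes were read on the same arrays, and at P1 some lay below 0 and some above. The erythroid markers had a median log2 ratio of -0.75, with 5 of 7 at least 1.5-fold lower in the knockout pool: carbonic anhydrase Car2 was at -1.16, the blood group gene Rhd at -1.15 and the erythroid factor Klf1 at -1.10. Transferrin receptor Tfrc, which dividing cells of other kinds carry too, was at 0.36. At E14 the same markers had a median of 0.00, with none 1.5-fold lower. Of 4 endothelial markers, 3 were detectable in both P1 pools and had a median of -0.67 (Kdr -0.67, Pecam1 -0.95, Stab2 -0.015). The 4 macrophage markers had a median of -0.20 (Cd68 -0.48, Ptprc -0.04). At E14 the stellate and fibroblast markers had a median of 0.63, with Dcn at 0.86, Lhx2 at 0.80, Des at 0.46 and Col1a1 at -0.04. At P1 their median was -0.14, with 3 of 4 below 0 and Lhx2 at 0.26. Hepatoblast and hepatocyte markers had a median of -1.01 at E14 after loess, with 6 of 6 below 0. Of these, 4 of 6 were at least 1.5-fold lower (Ttr -1.36, Alb -1.31, Afp -1.26 and Apoa1 -0.76), while Dlk1 was at -0.03. With median centring in place of loess the same 4 came to -0.60, -0.54, -0.49 and -0.003, and in the deposited values to -1.41, -1.36, -1.31 and -0.82. Their raw signals were very bright, and nearly equal in wild type and knockout for Alb (37881 and 37592) and Ttr (35758 and 34246). At P1 their median was -0.47, with 3 of 6 at least 1.5-fold lower (Ttr -1.65, Alb -1.12 and Apoa1 -1.05). The other 3 lay above 0 (Hnf4a 0.31, Afp 0.14 and Dlk1 0.11), so these markers took no common direction at P1. The part of these cell types in the ratios of the members was not tested.

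The 2 arrays were compared by the difference of the 2 log2 ratios of a gene, P1 minus E14, in which a dye effect that is the same on both arrays cancels. Age cannot be told apart here from material, which was sorted Dlk+ cells at E14 and whole liver at P1. The difference was below 0 for 38 of 42 members, against 50.7% of all 12005 genes detectable on both arrays. The median was -0.28 over the members and 0.00 over all genes. For replication members it was -0.36, with 14 of 14 below 0, and for mitosis members -0.26, with 18 of 20. The medians of both roles were below 0 in all 8 alternatives, and 29 members were below 0 in every one.

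A difference of 1.5-fold or more towards lower P1 ratios was met by 4 of 42 members, against 5.30% of all genes, a count of few genes whose share lies above the background but is small. The 4 were Ccnd2 (-1.07), Mki67 (-0.69), Top2a (-0.65) and Mcm5 (-0.64). Just short of it were Cdc6 and Tpx2, which had differences of -0.58 and -0.57, and Ccna2, also at -0.57. Mcm7 (-0.09), Gins2 (-0.05), Cdk4 (-0.03) and E2f1 (-0.05) hardly differed between the arrays. Above 0 were Cdkn1a (0.41), Ccne1 (0.12), Ttk (0.07) and Mad2l1 (0.04). Of these, Cdkn1a came to -0.49 with the local background subtracted, and Ccne1, Ttk and Mad2l1 were below 0 with median centring.

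The order of the members was poorly kept between arrays. Across the 42 members, the log2 ratios at E14 and P1 had a Pearson r of 0.23 and a Spearman rho of 0.22, and across all 12005 genes 0.08 and 0.16; both axes share the dyes and the probes, and genes are not replicates. Cenpe was high on both arrays, at 0.44 and 0.30. Ccnd2 and Mki67 went from among the higher members at E14 to the lower ones at P1.

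**Figure D3:**
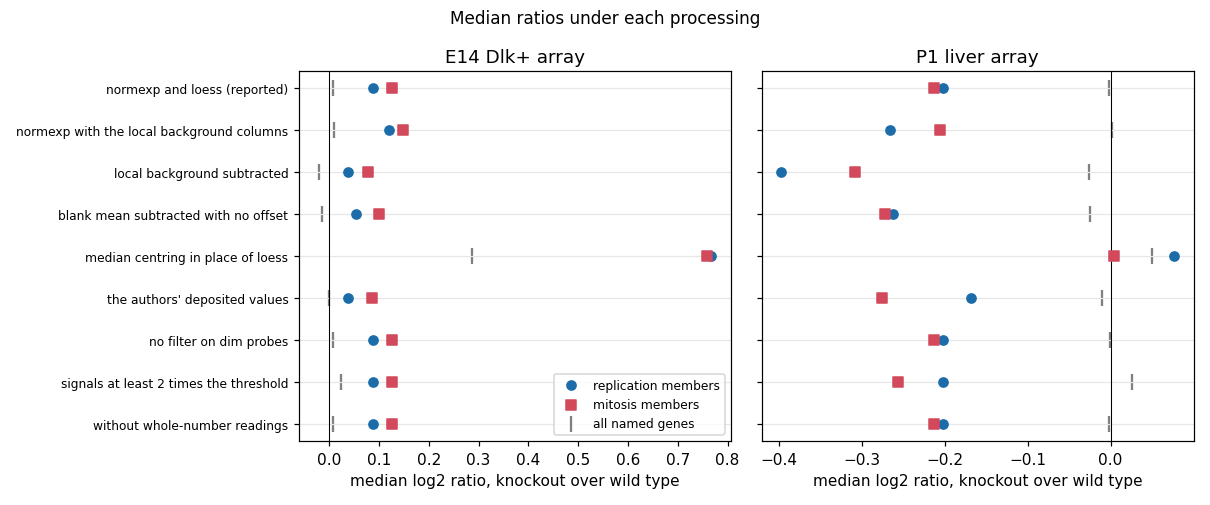
Median log2 ratio of knockout over wild type (horizontal axis) of the 14 replication members, the 20 mitosis members and all named genes under the reported processing and 8 alternatives (vertical axis), with the E14 Dlk+ array on the left and the P1 liver array on the right. Both roles lay above all genes at E14 in every row, and below 0 at P1 in every row but median centring, where replication members were at 0.08, mitosis members at 0.00 and all genes at 0.05.

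Members were also compared between the arrays. For this, each channel was brought to 1 distribution over both arrays, so that P1 and E14 signals of 1 dye could be compared. In wild type, 39 of 42 members were lower on the P1 array, as were 7504 of 12335 genes, and 19 were 2-fold or more lower, against 4.30% of all genes. None was 2-fold or more higher (5.65% of all genes). The median log2 difference was -0.92 over the members and -0.06 over all genes.

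The knockout channel showed the same picture with larger values. Of the 42 members, 41 were lower at P1, and 33 were 2-fold or more lower, against 6.63% of all genes. Cdkn1a was 2-fold or more higher (7.08% of all genes). The median log2 difference was -1.32 over the members and -0.04 over all genes. Sorted Dlk+ cells were set against whole liver here, so age and cell mix cannot be told apart; Dlk1 itself differed by -5.52 and the 7 erythroid markers by a median of 3.04 in wild type.

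Mitosis members had lower medians than replication members in both channels. In wild type, 12 of 20 mitosis members and 4 of 14 replication members were 2-fold or more lower at P1, with medians of -1.08 and -0.65. In knockout the counts were 17 of 20 and 12 of 14, with medians of -1.45 and -1.15. Cdk1 was lowest of all, 4.04-fold lower in wild type and 5.11-fold lower in knockout. Birc5 was 3.53-fold and 4.48-fold lower, Cdc20 3.23-fold and 4.02-fold, and Kif20a 2.75-fold and 3.65-fold.

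The members of mitosis varied widely in this. Mki67 had a log2 difference of 0.52 in wild type and -0.10 in knockout. Aurkb was at -0.41 and -0.94, Mybl2 at -0.42 and -0.72, and Top2a at -0.58 and -1.26. Mki67, Aurkb and Top2a were also among the mitosis members with the lowest P1 ratios; these are the same 4 readings of a gene, so this is 1 pattern and not 2.

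Among replication members Gins2 was 3.68-fold lower at P1 in wild type and 4.61-fold lower in knockout, Tyms 2.88-fold and 3.81-fold, Cdt1 2.35-fold and 3.01-fold, and Rfc4 2.15-fold and 2.66-fold. The MCM subunits and Pcna differed less, from 1.40-fold (Mcm2) to 1.86-fold (Mcm7) in wild type and from 1.91-fold (Mcm2) to 2.34-fold (Pcna) in knockout. Rrm1, Rrm2 and Cdc6 were 1.39-fold, 1.41-fold and 1.37-fold lower in wild type.

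G1 and G1/S members split widely. Ccne1 was 3.88-fold lower in wild type and 4.03-fold lower in knockout, and Cdk4 3.23-fold and 3.44-fold. Ccnd2 was 1.75-fold lower in wild type but 4.06-fold lower in knockout, the widest gap between the channels of any member. E2f1 (-0.33 and -0.45) and Cdk2 (0.18 and -0.24) differed little. The inhibitors parted: Cdkn1b was at -0.62 and -0.79, while Cdkn1a was at 0.56 and 1.25, the highest member in both channels.

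**Figure D4:**
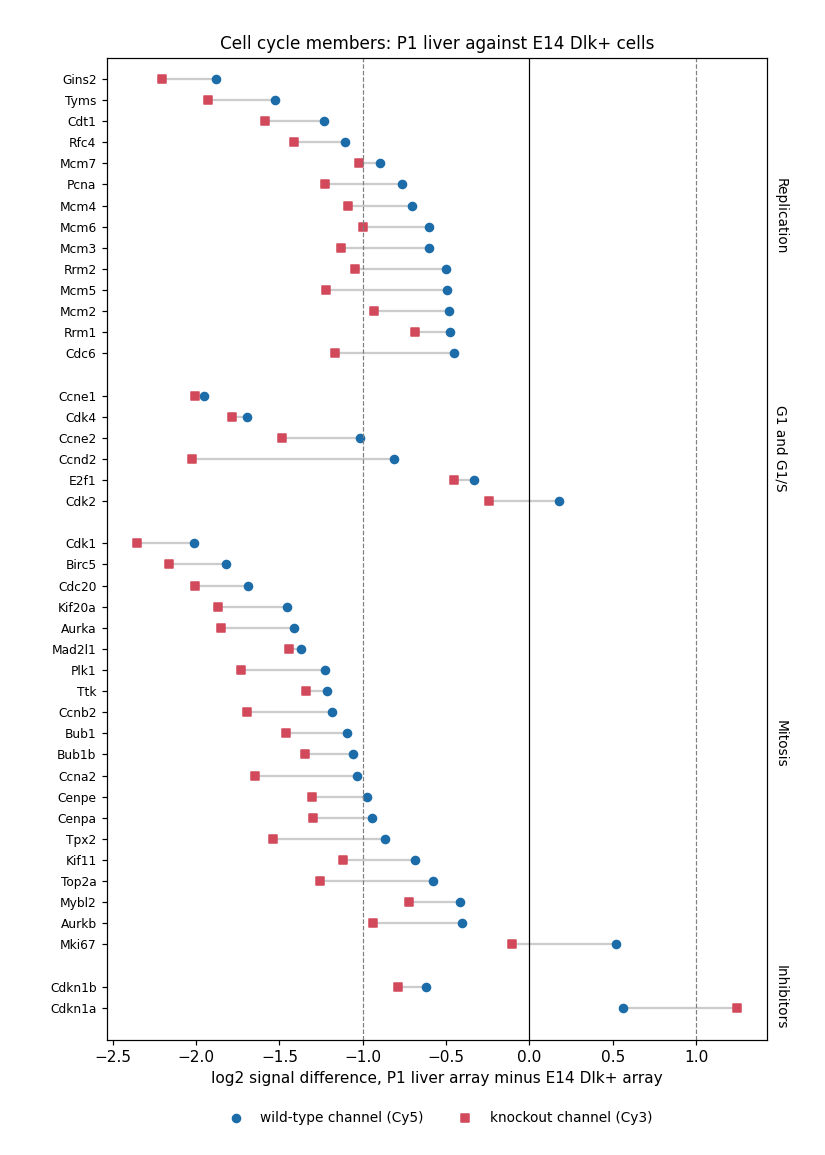
Log2 signal difference between the arrays, P1 liver minus E14 Dlk+ cells (horizontal axis), for each of the 42 members by role, with circles for the wild-type channel and squares for the knockout channel, 1 value each; dashed lines mark 2-fold. All but 3 members lay left of 0 in wild type and all but Cdkn1a in knockout, with Cdk1 farthest left (-2.01 and -2.35) and Cdkn1a farthest right.

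Wider lists of the same pathways, with no gene in common with the members, had smaller medians for replication and mitosis on both arrays. At E14, 37 of 45 further replication genes were above 0, with a median log2 ratio of 0.08. The highest were Rpa3 (0.35), of the single-strand binding protein RPA, Tipin (0.31), of the fork protection complex, and Rfc1 (0.30), the large clamp loader subunit. The lowest were Rfc5 (-0.10), Cdc7 (-0.09) and Orc2 (-0.07). At P1 the median was -0.03, with 26 of 44 below 0, which is little different from the 50.4% of all genes.

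Further replication genes at P1 reached both ways, and none passed 1.5-fold. Asf1b, a histone chaperone, read 326 in wild type and 322 in knockout (-0.56), the maintenance methyltransferase Dnmt1 362 and 373 (-0.51), and Slbp, the histone mRNA binding protein, was at -0.45. Gins1, a partner of Gins2, read 174 and 353 (0.52), the chromatin remodeller Hells 184 and 351.5 (0.43), and Rfc1 was at 0.33. The difference of ratios, P1 minus E14, had a median of -0.15 with 34 of 44 below 0.

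Further mitosis genes had a median of 0.11 at E14, with 37 of 48 above 0, led by the microtubule depolymerase Kif2c (0.41), Cdca8 (0.35), of the chromosomal passenger complex, and the condensin subunit Ncapg (0.32). Espl1, Sgo2a and Spc25 were lowest, at -0.09, -0.08 and -0.07. At P1 the median was -0.10 with 29 of 48 below 0. The phosphatase Cdc25b, which activates Cdk1, read 510 and 497.5 (-0.61). Ube2c, an enzyme that works with the anaphase-promoting complex, read 789 and 794 (-0.59). Both were 1.5-fold or more lower, and with median centring they came to -0.28 and -0.20. A count of 2 in 48 is near the 4.12% of all genes, so it says nothing about this list. Nusap1 was at -0.41, while the motor Kif15, the kinase Nek2 and the checkpoint gene Mad1l1 were at 0.33, 0.31 and 0.28. The difference of ratios was below 0 for 41 of 48, with a median of -0.22.

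Further G1 genes and inhibitors, 21 of 23 of them detectable in both channels, had medians of 0.04 at E14 and -0.10 at P1. The retinoblastoma gene Rb1 was the highest at E14 (0.49, reading 119 and 385) and the lowest at P1 (-0.56, reading 383 and 380). Cdkn1c, the inhibitor p57, read 5769 and 14605 at E14 (0.05) but 425 and 429 at P1 (-0.55). Myc, a driver of growth and division, read 164 and 378 at P1, a log2 ratio of 0.70 and the only one of these 21 past 1.5-fold, with E2f3 and E2f6 next at 0.16 and 0.09. Rbl1 was at -0.25 at P1; at E14, E2f2, Rbl2 and Mycn were lowest at -0.27, -0.19 and -0.16, with Cdc25a and Tfdp1 at 0.18 and 0.14.

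Between the arrays the wider lists of replication and mitosis also lay lower at P1. In wild type 13 of 45 further replication genes and 11 of 48 further mitosis genes were 2-fold or more lower at P1, and in knockout 20 of 44 and 23 of 48. The G1 list gave 2 of 21 and 4 of 21, beside 4.30% and 6.63% of all genes. Their medians in wild type were -0.66, -0.69 and -0.17.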

How the data were processed

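The deposited scanner files of 2 TORAY 2-colour arrays (27456 spots each, 2736 blank) hold spot intensity in both channels, not normalized, per the file headers. The authors' deposited value table holds log2 ratios; set against the scanner values, these were the ratio of blank-subtracted channels centred on the median, knockout over wild type, within 0.001 for all but 1 spot of each array. Probes were named through the platform annotation, with symbols updated by a RefSeq table (GRCm38.p6; 12622 current, 3947 updated, 62 kept); other probes were not used. With limma 3.58.1 in R 4.3.3, signals were corrected by normexp (offset 50, no local background), log2 ratios normalized by loess with control spots at weight 0, and probes of a gene averaged. The offset shrinks ratios of dim genes. The 4 quality-flagged E14 probes were left out. Detectable meant above the mean plus 2 SD of blank spots, 5% trimmed at each end. Between arrays, each channel was quantile normalized. Tables were made in Python 3.11.15 with pandas 2.3.3, and the ratio steps were tested on simulated data.

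The members and all lists were chosen with earlier results of these data known. Named genes were all members, the 3 highest and 3 lowest of each wider list per array, Mmp14 and marker genes; the rule named the 2 brightest of each marker list, and other markers were chosen after their values were seen. Alternatives were 3 other background corrections, median centring, the deposited values and 3 filters; between arrays, other scalings, blank subtraction and filters.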

Additional observations from a re-analysis of the deposited data

Results flagged for a closer look

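The log2 ratios of knockout over wild type had opposite signs on the 2 arrays, each larger than the SD between probes, for 8 members. The share of all genes that meet this rule was not counted, so it cannot be told whether 8 is unusual. The medians of both main roles also changed sign. With 1 array per age the differences were not tested. The replication median was 0.09 at E14 and -0.20 at P1, a difference of -0.29. The mitosis median was 0.13 and -0.21, a difference of -0.34. With median centring in place of loess the P1 medians were 0.08 and 0.00, so the change of sign was not seen there. Of the 8 members, Ccnd2, Mki67 and Tpx2 had opposite signs on the 2 arrays under each alternative. Mcm4 and Mcm6 were above 0 at P1 with median centring (0.11 and 0.085), Cdc6 was above 0 at P1 with the local background used (0.040 and 0.26), Mcm4 and Mcm5 were below 0 at E14 with it subtracted (-0.021 and -0.022), and Top2a was below 0 at E14 in both local background settings (-0.023 and -0.083). Among replication members the differences, P1 minus E14, were -0.37 for Mcm4, -0.64 for Mcm5, -0.38 for Mcm6 and -0.58 for Cdc6. Ccnd2 differed by -1.07. Among mitosis members Mki67 differed by -0.69, Top2a by -0.65 and Tpx2 by -0.57.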

How the results depend on the processing

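With median centring in place of loess, the E14 medians of replication and mitosis members came to 0.77 and 0.76, the P1 median of replication members to 0.076, and the medians of the P1 minus E14 difference of ratios to -0.72 (replication) and -0.72 (mitosis); the latter was -0.51 with the local background subtracted. Members 1.5-fold or more changed at E14 numbered 0 as reported, but 5 with normexp on the local background, 6 with that background subtracted and 34 with median centring. At P1 they numbered 2 as reported, 7, 17 and 1 in the same settings, 10 with the blank mean subtracted and 7 in the authors' deposited values. Over all genes, 39 were higher and 28 lower at E14 as reported. With normexp on the local background these were 488 and 31, and with it subtracted 1779 and 968. Median centring gave 3158 and 5, and the deposited values 684 and 155. At P1 the counts were 362 and 524 as reported, and 881 and 457 with normexp on the local background. They were 2328 and 1868 with it subtracted and 1298 and 320 with median centring. Blank mean subtraction gave 1256 and 1562, and the deposited values 1510 and 1554. Genes counted numbered 12705 at E14 and 12715 at P1, or 12558 and 12634 with the local background subtracted. The knockout median between arrays was -1.32, and -1.74 with the blank mean subtracted. The reason was not tested beyond the known effect of an offset, which pulls ratios of dim genes towards 0. Single members kept their sign in every alternative in 17 of 42 cases at E14 and 22 of 42 at P1. No paired analysis was possible because each group is 1 channel of 1 array. Readings near the blank threshold, such as Cdkn1a and Cdkn1b, limit precision.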
